A study of Homo sapiens with 12 samples.

Results

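The genes described here build, load and control MHC class I and class II, the molecules that carry peptides to the surface of a cell for T cells to read. They were named as a list of 32 symbols and found through their Ensembl identifiers. All 32 were in the deposited table, among 60664 genes. Of the 32 members, 31 passed the filter on low counts and were tested. HLA-DOB, with 0 to 12 counts in any library, did not pass.

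Poly(A) RNA was sequenced from TOM-1 and RS4;11, B-lineage acute lymphoblastic leukaemia lines that the labels describe as lymphoblasts from blood. TOM-1 has a BCR and ABL1 fusion, and RS4;11 has a rearranged KMT2A gene. Treated cells received ADI-PEG20, arginine deiminase coupled to polyethylene glycol, which depletes the medium of arginine. The groups were TOM-1 in control culture, TOM-1 with 1000 ng/ml ADI-PEG20, RS4;11 in control culture and RS4;11 with 1000 ng/ml ADI-PEG20, each of WT genotype, sampled after 24 h, with 3 libraries. Each kind of leukaemia is represented by 1 line. The labels do not say whether replicates were separate cultures, so p-values measure only the spread between these libraries, which may be technical.

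MHC class I consists of a heavy chain and B2M and holds peptides made in the cytosol. The proteasome cuts these peptides, its immune form with the subunits PSMB8, PSMB9 and PSMB10, the TAP1 and TAP2 transporter moves them into the endoplasmic reticulum, ERAP1 and ERAP2 trim them, and tapasin (TAPBP) helps to load them. MHC class II pairs an alpha with a beta chain, travels with the invariant chain CD74, and takes up peptides from endosomes with the help of HLA-DM. B cells make both classes. Their promoters share a module of X and Y boxes, bound by the RFX complex (RFX5, RFXAP and RFXANK), CREB and NF-Y, on which CIITA acts as the main switch for class II and NLRC5 as the matching activator for class I.

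The X and Y boxes are shown because the members of both classes are read below against CIITA, NLRC5 and the RFX genes. Promoters came from RefSeq on GRCh38.p14, which had an entry for 27 members and none for HLA-E, HLA-DRA, NLRC5, CIITA and CTSS. Each line gives the strand of the gene, 5′ to 3′, with positions counted from its start. In the class II genes, capitals mark ACNGA, letters within the X box, and ATTGG, the Y box, which reads CCAAT on the other strand.
HLA-DRB1, chr6:32589886-32589927, minus strand, -79 to -38: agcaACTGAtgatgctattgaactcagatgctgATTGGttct
HLA-DRB5, chr6:32530369-32530410, minus strand, -123 to -82: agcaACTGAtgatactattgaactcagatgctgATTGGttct
HLA-DQA1, chr6:32637304-32637346, plus strand, -102 to -60: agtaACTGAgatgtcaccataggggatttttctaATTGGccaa
HLA-DQB1, chr6:32666737-32666778, minus strand, -121 to -80: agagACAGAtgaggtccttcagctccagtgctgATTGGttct
HLA-DMA, chr6:32953168-32953210, minus strand, -113 to -71: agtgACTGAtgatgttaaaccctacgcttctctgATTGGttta
HLA-DOA, chr6:33009650-33009692, minus strand, -101 to -59: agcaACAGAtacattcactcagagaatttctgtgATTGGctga
These 6 of the 11 class II members with an entry held ACNGA followed by ATTGG with 15 to 30 bases between them, on the strand of the gene within the 250 bases before its start. None of the 13 class I members did, and of all 35116 promoters 0.971% did.

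In 3 of the 13 class I members with an entry the letters TGACG, a site of the CREB kind, stood before ATTGG. Both are again in capitals. Between them were 20 or 21 bases. The 24 or 25 bases in the class II genes above were counted from other letters, ACNGA, so these gaps do not compare the spacing of the boxes between the classes.
B2M, chr15:44711438-44711476, plus strand, -79 to -41: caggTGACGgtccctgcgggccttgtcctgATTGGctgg
HLA-B, chr6:31357252-31357289, minus strand, -110 to -73: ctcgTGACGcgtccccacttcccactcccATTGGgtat
HLA-C, chr6:31272164-31272201, minus strand, -109 to -72: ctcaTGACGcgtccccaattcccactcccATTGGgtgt
HLA-F, chr6:29723323-29723360, plus strand, -111 to -74: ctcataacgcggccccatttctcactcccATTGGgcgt
B2M, HLA-B and HLA-C held TGACG followed by ATTGG, as did 0 of the 11 class II members and 0.273% of all promoters. HLA-F held ATTGG in the same surroundings without TGACG. The Y box letters alone were common, on either strand in 18 of the 27 members and in 32% of all promoters. The letters searched were chosen after these promoters had been read, the parts can overlap other motifs, and a match is not a measured site.

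TOM-1 control replicate 3 stood apart from the other libraries, so effects that turn on it are given with and without it, and levels are given by library. Its reads fell on 14963 genes, where the other libraries covered 19857 to 21997, at totals that ran from 18958144 to 35956959 counts. Levels are CPM, counts relative to the library total after TMM scaling (a trimmed mean of the log ratios between libraries). Of 31 members, 22 were higher in that library than in the mean of the other TOM-1 controls and 9 lower. HLA-DRB1 (2.69-fold), PSMB9 (2.52-fold), RFXANK (2.50-fold) and HLA-B (2.26-fold) were among the highest, and ERAP1 (0.389-fold) and RFX5 (0.502-fold) were the lowest. Reads of that library lay on shorter genes, with a count-weighted median of 4209 exonic bases against 5396 and 5432 in the other TOM-1 controls. In the treated TOM-1 libraries the median was 5893, 5894 and 5912, above every TOM-1 control. Across the 31 members the log2 ratio and the exonic length had a Spearman's rho of -0.70, and across 17072 genes -0.20. For these correlations the ratio was the log2 CPM of that library, with a small count added, minus the mean log2 CPM of the other TOM-1 controls. The log2 fold change of ADI-PEG20 in TOM-1 and the exonic length had a rho of 0.18 across the 17072 genes and 0.275 across the members. Without TOM-1 control replicate 3 these were 0.10 and -0.12. The part of length in that effect was not tested. The ratios describe 1 library, and genes are not independent.

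**Figure D1:**
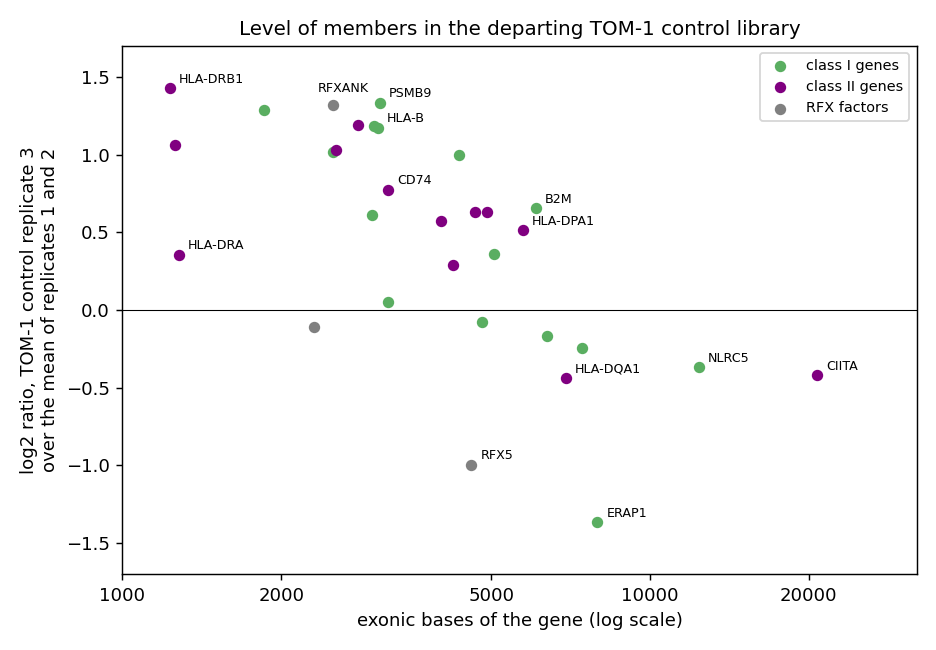
Each point is 1 of 31 tested members. The x axis is the exonic length of the gene in bases (log scale), and the y axis the log2 ratio of its CPM in TOM-1 control replicate 3 to the mean of control replicates 1 and 2. Many short genes such as HLA-DRB1 lie above 0, and the long genes CIITA, NLRC5 and ERAP1 below it. Exceptions include B2M (6079 bases) and HLA-DPA1 (5748), which lie above 0, and RFXAP (2306), which lies below it.

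Both lines carried the RNA of B-lineage cells. All 9 B-lineage markers examined (CD79A, CD79B, PAX5, EBF1, VPREB1, IGLL1, DNTT, RAG1 and CD22) had over 3 counts in every library, summing to 6549 to 8014 CPM in TOM-1 control, 6979 to 7273 in treated TOM-1, 2613 to 2889 in RS4;11 control and 2697 to 3078 in treated RS4;11. T cell markers summed to at most 0.478 CPM in any library, erythroid markers to at most 0.257 and markers of fibroblasts or epithelium to at most 7.70. The list for monocytes, macrophages and dendritic cells, which also present on class II, summed to 4.17 to 6.29 CPM in TOM-1 control and 0.393 to 0.955 in treated TOM-1, mostly from CSF1R. In TOM-1 control, CSF1R had 79 to 144 counts, LYZ and FCGR3A had 0 in all libraries, and CD14, ITGAM and CD1C had 0 to 25. With ADI-PEG20, CSF1R had 9 to 15 counts, CD14, FCGR3A and CD1C had 0, and LYZ and ITGAM at most 8. In RS4;11 that list summed to 16.7 to 21.7 CPM in control and 14.2 to 17.3 with ADI-PEG20. There, 4 of its 6 markers had over 3 counts in every control library and 2 in every treated library, against 1 in each TOM-1 group. The part of these low levels in the class II results was not tested. In bulk RNA, fewer cells that express a gene and less RNA of it per cell cannot be told apart.

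To compare genes with each other, CPM were divided by the length in kilobases of the principal transcript. In TOM-1 control CD74 stood highest, at 3058 ± 1017 CPM per kb (SD, n = 3), followed by B2M (1267 ± 354), HLA-B (1023 ± 523), HLA-C (652 ± 286) and HLA-DRA (615 ± 91.1). Of these neighbours only CD74 and B2M were apart by more than their SD. Without replicate 3 the means were 2472 for CD74, 1064 for B2M, 721 for HLA-B, 562 for HLA-DRA and 486 for HLA-C, so that HLA-DRA and HLA-C change places, and in replicates 1 and 2 none of these 5 genes overlapped. The factors were low on this scale, with NLRC5 at 37.0 ± 5.36 and CIITA at 18.8 ± 3.00 CPM per kb (20.5 for CIITA without replicate 3). The length used was 16059 bases for CIITA, its longest principal transcript, and 6822 for NLRC5. In CPM, CIITA lay above NLRC5 in every TOM-1 control library, so their order per kb rests on these lengths. Which transcripts the cells made was not tested. HLA-DQA1 (2.36 ± 0.915) and HLA-DOB (0.228 ± 0.193), the beta chain of the HLA-DO modulator of class II loading, were the lowest members, also without replicate 3 (2.58 and 0.129). In RS4;11 control CD74 (885 ± 68.3) and B2M (539 ± 33.7) again led, followed by HLA-C (354 ± 9.12), HLA-B (303 ± 7.10) and HLA-DRA (121 ± 1.57). The members took 1.00% to 1.01% of the counts in TOM-1 control replicates 1 and 2, 1.35% in replicate 3, 0.988% to 1.03% in treated TOM-1, and 0.454% to 0.482% in RS4;11.

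The first comparison asked how ADI-PEG20 moved these genes in TOM-1. CD74 and 6 of 7 class II chains fell, B2M fell, and no class I heavy chain was called lower. With all 12 libraries, 14 of the 31 tested members passed the threshold (edgeR, adjusted p under 0.05), against 31.9% of all 17349 genes, and 13 of the 14 were lower, against 15.9% of all genes called lower. RFX5 was the 1 member that rose, against 15.9% of all genes called higher. The 13 that fell were B2M, TAP2, TAPBP, PSMB9, PSMB10, ERAP2, HLA-DRA, HLA-DRB1, HLA-DRB5, HLA-DPA1, HLA-DPB1, HLA-DQB1 and CD74. The median log2 fold change of the members was -0.38, and of all genes 0.05. Without TOM-1 control replicate 3, 20 members were called against 41.6% of 18321 genes, 14 lower (background 19.8%) and 6 higher (background 21.8%), with medians of -0.20 and 0.00. Libraries did not overlap between the groups for 2 members that were higher (26.1% of all genes) and 14 that were lower (20.1%), or for 9 (31%) and 15 (28%) without that library. The count of 14 also fell to 8, 8 and 7 without treated TOM-1 replicate 1, 2 or 3, against 21.7%, 21.7% and 22.1% of all genes. A fit on the 6 TOM-1 libraries alone called 6 members, against 17.2% of all genes, which were TAP2, ERAP2, HLA-DRA, HLA-DPA1, HLA-DQB1 and CD74.

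**Figure D2:**
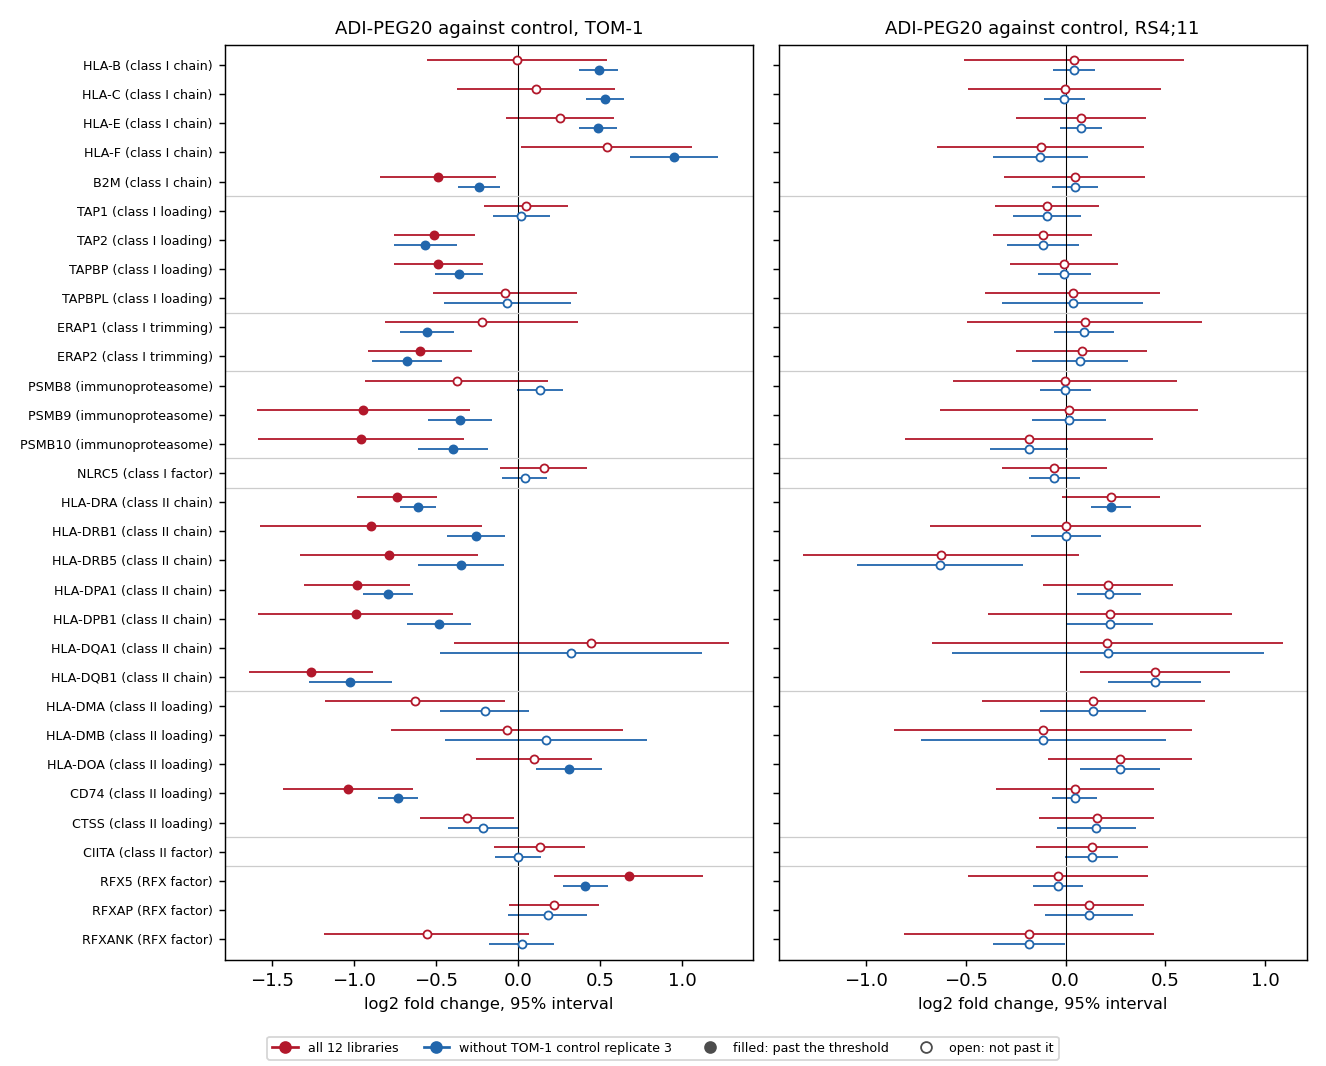
Points are log2 fold changes of ADI-PEG20 against control for 31 members, in TOM-1 (left) and RS4;11 (right), and bars are 95% intervals from the fit of 3 libraries per group (red) or without TOM-1 control replicate 3 (blue). Filled points passed the adjusted threshold. In TOM-1 the class II chains other than HLA-DQA1, and CD74, lie below 0 in both fits, and the intervals of the 4 heavy chains lie above 0 in blue, while in red all but that of HLA-F include 0.

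The class I heavy chains carry the peptide groove. HLA-B, a classical heavy chain, stood at 1106, 1125 and 2516 CPM in TOM-1 control replicates 1 to 3 and at 1633, 1562 and 1519.5 CPM with ADI-PEG20. HLA-C, also classical, stood at 749, 745 and 1509 CPM in control and 1130.3, 1085 and 1022 CPM with ADI-PEG20. In both genes the treated libraries lay above control replicates 1 and 2 and below replicate 3. HLA-E, which presents leader peptides to NK cell receptors, stood at 499, 499.6 and 762 CPM in control and 705, 716 and 681 CPM with ADI-PEG20. HLA-F, a non-classical chain with 28.5% of its exonic bases under genes of the opposite strand, stood at 14.0, 17.9 and 31.8 CPM in control and 29.9, 31.3 and 30.9 CPM with ADI-PEG20. In both, control replicate 3 was the highest of the 6 TOM-1 libraries and control replicates 1 and 2 were the lowest.

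With all libraries none of the 4 heavy chains passed. The log2 fold change was -0.01 for HLA-B (95% interval -0.56 to 0.54), 0.11 for HLA-C (-0.37 to 0.59), 0.26 for HLA-E (-0.07 to 0.58) and 0.54 for HLA-F (0.02 to 1.06, edgeR adjusted p = 0.106). All 4 rose when TOM-1 control replicate 3 was left out. HLA-B rose by 0.49 (SE 0.06, adjusted p = 3.42e-07), HLA-C by 0.53 (SE 0.06, adjusted p = 9.46e-08), HLA-E by 0.49 (SE 0.06, adjusted p = 2.88e-07) and HLA-F by 0.95 (SE 0.13, adjusted p = 2.95e-06). For these genes that library therefore decides the call. HLA-B shares 17.8% of its exonic bases with genes of the opposite strand, and heavy chain genes are alike enough for reads to be placed on the wrong one.

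B2M, the light chain that every class I molecule needs, fell. It stood at 1845, 1782 and 2856 CPM in TOM-1 control and 1558, 1579 and 1477 CPM with ADI-PEG20. All treated libraries lay below all controls. B2M fell by 0.49 on the log2 scale (SE 0.16, edgeR adjusted p = 0.0369), and by 0.24 (SE 0.06, adjusted p = 0.0028) without TOM-1 control replicate 3. The call with all other libraries was lost without any 1 of the treated TOM-1 libraries and without RS4;11 control replicate 1 or treated replicate 1, with adjusted p up to 0.104. Its log2 fold change ran from -0.65 to -0.24 when libraries were left out in turn.

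Among the loading genes TAP2 and TAPBP fell, and TAP1 and TAPBPL were not called. TAP1 stood at 251, 253 and 239 CPM in TOM-1 control and 265, 263 and 240.2 CPM with ADI-PEG20, overlapping groups with a log2 fold change of 0.05 (95% interval -0.21 to 0.31), or 0.02 (-0.16 to 0.19) without TOM-1 control replicate 3. With upper-quartile scaling it was -0.03. TAP2, its partner, stood at 63.9, 59.8 and 55.2 CPM in control and 41.4, 39.1 and 45.0 CPM with ADI-PEG20. The groups did not overlap, and TAP2 fell by 0.51 (SE 0.11, edgeR adjusted p = 0.00502), or by 0.57 (SE 0.09) without that library. A gene on the same strand covers 32.3% of the exonic bases of TAP2, so reads could belong to either. TAPBP, tapasin, stood at 206, 212 and 268 CPM in control and 176, 163 and 151 CPM with ADI-PEG20. It fell by 0.49 (SE 0.12, adjusted p = 0.0107), or by 0.36 (SE 0.07) without that library, with no overlap. TAPBPL, a tapasin-like editor of class I peptides, was not called at -0.08 (95% interval -0.52 to 0.36), or -0.07 without that library.

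Trimming enzymes differed in how much they rested on TOM-1 control replicate 3. ERAP2 stood at 139.6, 146 and 121 CPM in control and 90.4, 89.5 and 88.1 CPM with ADI-PEG20. It fell by 0.60 (SE 0.15, edgeR adjusted p = 0.00835), or by 0.68 (SE 0.10) without that library, and the groups did not overlap. ERAP1 stood at 230.3, 228 and 88.9 CPM in control and 156, 160.0 and 153 CPM with ADI-PEG20. Its treated libraries lay below control replicates 1 and 2 and above replicate 3, with a log2 fold change of -0.22 (95% interval -0.81 to 0.37). Without replicate 3 ERAP1 fell by 0.55 (SE 0.08, adjusted p = 5.41e-06).

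Of the immunoproteasome subunits 2 of 3 fell, as did their 3 constitutive counterparts. PSMB9, an immune catalytic subunit, stood at 160.2, 150.0 and 391 CPM in TOM-1 control and 113, 137 and 114 CPM with ADI-PEG20. The groups did not overlap, and it fell by 0.94 (SE 0.30, edgeR adjusted p = 0.0301), or by 0.36 (SE 0.09, adjusted p = 0.00416) without TOM-1 control replicate 3. PSMB10, another such subunit, stood at 45.0, 40.8 and 105 CPM in control and 31.8, 33.9 and 32.1 CPM with ADI-PEG20, again without overlap. PSMB10 fell by 0.96 (SE 0.29, adjusted p = 0.0238), or by 0.40 (SE 0.10) without that library. A gene on the same strand covers 34.8% of the exonic bases of PSMB10. With all other libraries in, both calls were lost without any 1 treated TOM-1 library, at adjusted p up to 0.0909 for PSMB9 and 0.0686 for PSMB10.

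PSMB8, the remaining immune subunit, with 20.6% of its exonic bases under genes of the opposite strand, was not called (-0.38, 95% interval -0.93 to 0.18), and stood at 0.13 (-0.01 to 0.27) without TOM-1 control replicate 3. The constitutive subunits PSMB5, PSMB6 and PSMB7, which the immune subunits replace, fell by 1.13, 1.00 and 1.01, or by 0.79, 0.28 and 0.44 without that library (edgeR adjusted p of 7.08e-06, 0.00615 and 0.000104). With all other libraries in, the PSMB6 call was lost without any 1 treated TOM-1 library or RS4;11 replicate 1 of either culture (adjusted p up to 0.0981). That of PSMB7 was lost without treated TOM-1 replicate 1 or 2 (adjusted p up to 0.0616). Summed, the immune subunits stood at 366, 362 and 874 CPM in control and 325, 354 and 329 CPM with ADI-PEG20. The constitutive ones stood at 238, 234 and 589.8 CPM in control and 173, 169 and 177 CPM with ADI-PEG20. Both sums were lower in all treated libraries than in all controls.

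Of the class II chains, 6 of 7 fell in both fits, with a median log2 fold change of -0.90, or -0.48 without TOM-1 control replicate 3. HLA-DRA, the alpha chain of HLA-DR, stood at 726, 713 and 921 CPM in TOM-1 control and 475, 478 and 462 CPM with ADI-PEG20. Every treated library lay below every control, and HLA-DRA fell by 0.74 (SE 0.11, edgeR adjusted p = 0.000505), or by 0.61 (SE 0.05, adjusted p = 3.64e-09) without that library. HLA-DRB1, its beta chain, stood at 154, 154 and 415 CPM in control and 137, 126 and 124 CPM with ADI-PEG20. It fell by 0.90 (SE 0.31, adjusted p = 0.044), but by 0.26 (SE 0.08, adjusted p = 0.0168) without TOM-1 control replicate 3, so most of that size rests on 1 library. HLA-DRB5, a second HLA-DR beta gene that only some haplotypes carry, stood at 40.8, 44.0 and 88.4 CPM in control and 31.7, 34.6 and 33.7 CPM with ADI-PEG20. Its groups did not overlap, and it fell by 0.79 (SE 0.25, adjusted p = 0.0301), or by 0.35 (SE 0.13, adjusted p = 0.0305) without that library.

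With all other libraries in, the HLA-DRB1 call was lost without any 1 treated TOM-1 or RS4;11 library (adjusted p up to 0.109), and that of HLA-DRB5 without any 1 treated TOM-1 library (adjusted p up to 0.0888). HLA-DRB1 and HLA-DRB5 are close copies, so reads can be placed on either.

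HLA-DPA1, the alpha chain of HLA-DP, stood at 273, 275 and 391 CPM in TOM-1 control and 153, 161 and 160.1 CPM with ADI-PEG20. It fell by 0.98 (SE 0.15, edgeR adjusted p = 0.000481), or by 0.79 (SE 0.07) without TOM-1 control replicate 3, and its groups were well apart. HLA-DPB1, its beta chain, stood at 151, 144 and 337 CPM in control and 107, 109 and 101 CPM with ADI-PEG20. It fell by 0.99 (SE 0.27, adjusted p = 0.0156), or by 0.48 (SE 0.09, adjusted p = 0.000227) without that library, and its call was lost without treated TOM-1 replicate 3 (adjusted p = 0.0519). HLA-DQB1, the beta chain of HLA-DQ, stood at 28.2, 29.4 and 44.5 CPM in control and 14.5, 15.2 and 12.9 CPM with ADI-PEG20. This was the largest fall of any member, 1.26 on the log2 scale (SE 0.17, adjusted p = 0.000274), or 1.02 (SE 0.12) without that library. HLA-DQA1, the alpha chain of HLA-DQ, was near the bottom of the range, at 2.78, 5.42 and 3.03 CPM in control and 6.08, 4.77 and 4.48 CPM with ADI-PEG20. It was not called, at 0.45 (95% interval -0.39 to 1.29), or 0.32 without TOM-1 control replicate 3.

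CD74, the invariant chain that blocks the class II groove on the way to the endosome, stood at 2486, 2364 and 4149 CPM in TOM-1 control and 1514, 1468 and 1401 CPM with ADI-PEG20. It fell by 1.04 (SE 0.18, edgeR adjusted p = 0.00129), or by 0.73 (SE 0.06, adjusted p = 1.26e-09) without TOM-1 control replicate 3, and its call held in all 12 fits that left out 1 library. Of the other 4 class II loading genes tested, none was called with all libraries. HLA-DMA, a chain of the HLA-DM exchange factor, was not called (-0.63, adjusted p = 0.0758, and -0.20 without that library), nor was its partner HLA-DMB (-0.07, or 0.17 without it). CTSS, the endosomal protease cathepsin S that cuts CD74, was not called (-0.31, 95% interval -0.60 to -0.03, adjusted p = 0.0918, and -0.21 without that library). HLA-DOA, a chain of HLA-DO, was not called at 0.10 (-0.26 to 0.45), and rose by 0.31 (SE 0.10, adjusted p = 0.0135) without TOM-1 control replicate 3.

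**Figure D3:**
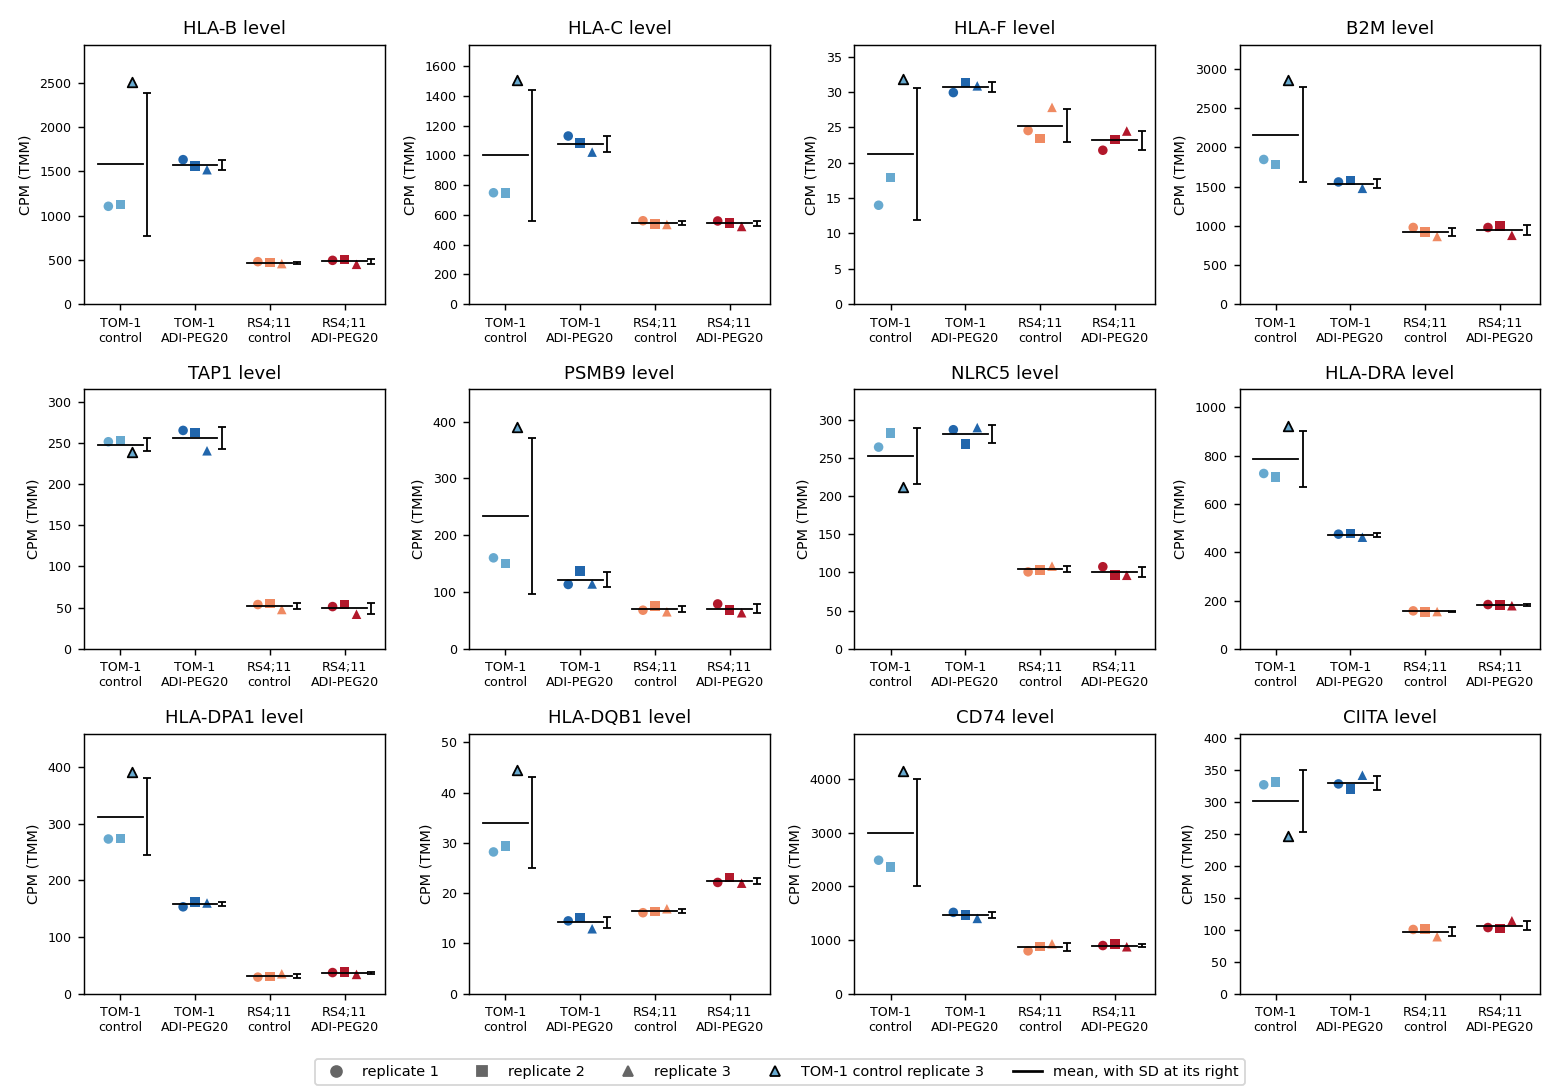
Each panel plots the CPM (linear axis from 0) of 1 member in the 12 libraries, 3 per group; horizontal lines are means over 3 libraries and bars SD. HLA-DRA, HLA-DPA1, HLA-DQB1 and CD74 are lower in all treated TOM-1 libraries than in all TOM-1 controls, while TAP1, NLRC5 and CIITA overlap, and the outlined TOM-1 control replicate 3 lies apart in most panels.

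Neither transcriptional activator was called. CIITA, overlapped by other genes over 11.5% of its exonic bases in sense and 12.4% in antisense, stood at 327, 332 and 246 CPM in TOM-1 control and 329, 320.2 and 342 CPM with ADI-PEG20. The groups overlapped, and the log2 fold change was 0.13 (95% interval -0.15 to 0.41), or 0.00 (-0.14 to 0.14) without TOM-1 control replicate 3. NLRC5 stood at 264, 282 and 212 CPM in control and 287, 268 and 289.5 CPM with ADI-PEG20. It also overlapped, at 0.15 (-0.11 to 0.42), or 0.04 (-0.10 to 0.18) without that library. These intervals concern the RNA of the genes alone.

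RFX5, the large subunit of the RFX complex, stood at 151, 152 and 75.9 CPM in TOM-1 control and 209, 198 and 198 CPM with ADI-PEG20. It rose by 0.67 (SE 0.21, edgeR adjusted p = 0.0272), or by 0.41 (SE 0.07, adjusted p = 2.74e-05) without TOM-1 control replicate 3. With that library in, its call was lost in 7 of 12 fits, those without any 1 treated TOM-1 library or without replicate 2 or 3 of either RS4;11 culture (adjusted p up to 0.0941). RFXAP, another subunit, was not called at 0.22 (95% interval -0.06 to 0.49), or 0.18 without that library. RFXANK, the remaining subunit, with 23.3% of its exonic bases under genes of the opposite strand, was not called at -0.56 (-1.18 to 0.07), or 0.02 (-0.18 to 0.22) without that library.

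Summed over the genes, the balance between the classes differed between the TOM-1 groups. The heavy chains HLA-B, HLA-C, HLA-E and HLA-F summed to 2367, 2388 and 4819 CPM in control and 3498, 3394 and 3253 CPM with ADI-PEG20. The 7 class II chains summed to 1376, 1364 and 2199.7 CPM in control and 925, 929 and 898 CPM with ADI-PEG20. The ratio of the sums, taken within each library, was 1.72, 1.75 and 2.19 in control and 3.78, 3.65 and 3.62 with ADI-PEG20, so that control replicate 3 stood nearer to the other controls than to the treated libraries. The mean ratio was 1.89 ± 0.263 in control, with replicate 3 included, and 3.69 ± 0.0852 with ADI-PEG20 (SD, n = 3). No test was made on the sums, whose genes were chosen with results known.

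**Figure D4:**
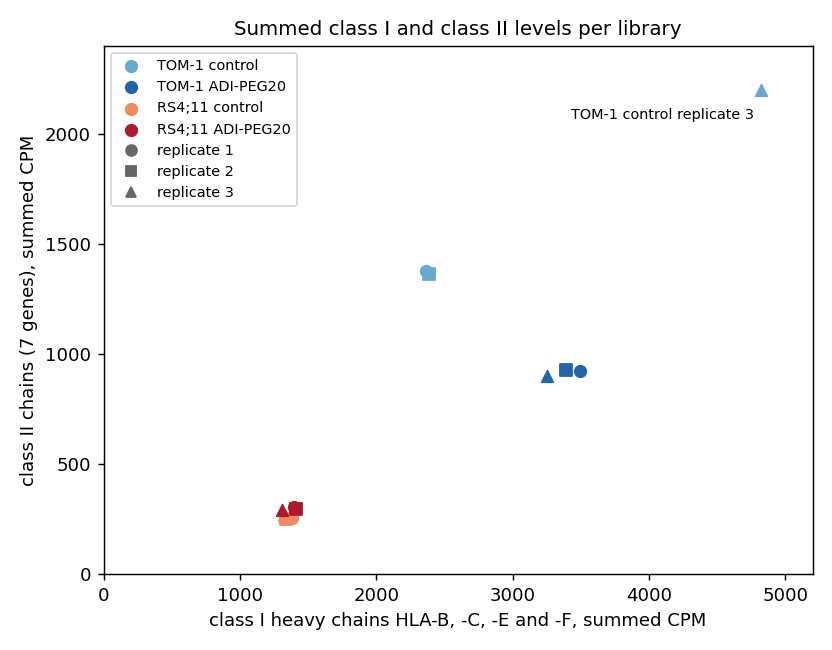
Each point is 1 library, with the summed CPM of 4 class I heavy chains on the x axis and of 7 class II chains on the y axis, coloured by group and shaped by replicate. Treated TOM-1 libraries lie below and to the right of control replicates 1 and 2, control replicate 3 lies far up and right, and the 6 RS4;11 libraries lie together near the origin.

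Of 39 other genes of the pathway looked at (chaperones, proteasome activators, interferon signalling, promoter factors, endosomal proteases and co-stimulators), 35 were tested in TOM-1. They were chosen with results of these data known. With ADI-PEG20, 6 rose and 9 fell, against 15.9% of all genes in each direction, and without TOM-1 control replicate 3, 11 rose and 11 fell of 36 tested, against 21.8% and 19.8%. PSME1, a subunit of the PA28 activator of the proteasome, fell from 293, 281 and 631 CPM to 145, 130.3 and 128 CPM, by 1.58 on the log2 scale (SE 0.25, edgeR adjusted p = 0.000707), or by 1.10 without that library. PSME2, its partner, fell by 1.64 (SE 0.27), or by 1.11 without it. SPPL2A, a protease that clears the last fragment of CD74, rose from 25.3, 20.8 and 13.0 CPM to 59.2, 62.6 and 53.1 CPM, by 1.56 (SE 0.20, adjusted p = 0.000152), or by 1.33. CTSH, cathepsin H, fell by 1.40 (SE 0.36), or by 1.05, from a low level of at most 1.93 CPM.

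In RS4;11 the same comparison gave no call. None of the 31 tested members passed, against 0% of all genes (edgeR). Before adjustment 325 of 17349 genes and 1 member, HLA-DQB1, were under 0.05. The Wald test of DESeq2 also called 0 members. The median log2 fold change of the members was 0.04, and of all genes 0.00. HLA-DRA stood at 157, 153 and 154 CPM in control and 183, 182 and 179 CPM with ADI-PEG20. The groups did not overlap, at a log2 fold change of 0.23 (95% interval -0.02 to 0.47). In the fit without TOM-1 control replicate 3, which enters here only through the filter, the scaling and the shared spread, HLA-DRA was the 1 member called (0.23, SE 0.05, adjusted p = 0.0481), against 0.317% of all genes in either direction and 0.202% called higher (0.115% lower). HLA-DQB1 stood at 16.1, 16.3 and 16.9 CPM in control and 22.1, 23.1 and 22.0 CPM with ADI-PEG20. These groups also did not overlap, at 0.45 (0.07 to 0.82, adjusted p = 1), and at 0.45 (adjusted p = 0.0815) without that library.

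Between treated and control libraries of RS4;11, 4 members did not overlap and were higher (HLA-DRA, HLA-DQB1, CIITA and CTSS), against 7.72% of all genes, and 3 were lower (TAP2, HLA-DRB5 and RFXANK), against 9.05%. With scaling and filter set without TOM-1 control replicate 3 these were again 4 and 3, against 7.54% and 8.73%. HLA-B stood at 479, 471 and 457 CPM in control and 494, 506 and 449 CPM with ADI-PEG20, a log2 fold change of 0.04 (95% interval -0.51 to 0.59), or 0.04 (-0.06 to 0.15) without TOM-1 control replicate 3. HLA-DRB5 stood at 2.19, 1.85 and 1.72 CPM in control and 1.16, 1.17 and 1.43 CPM with ADI-PEG20, lower in all treated libraries but from 24 to 51 counts and not called (-0.62). CD74 stood at 796, 879 and 928 CPM in control and 895, 919.5 and 873 CPM with ADI-PEG20, at 0.05 (-0.35 to 0.44). The class II chains summed to 253 to 267 CPM in control and 293 to 304 CPM with ADI-PEG20. The ratio of heavy chains to class II chains was 4.94 to 5.39 in control and 4.47 to 4.75 with ADI-PEG20.

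Whether the effect differed between the lines was tested directly, as the log2 fold change in TOM-1 minus that in RS4;11. It differed for 4 members, against 11.9% of all genes, each with a lower value in TOM-1, against 6.05% in that direction and 5.89% in the other (edgeR). All 4 belong to class II. The difference was -1.71 for HLA-DQB1 (SE 0.24, adjusted p = 0.00134), -1.20 for HLA-DPA1 (SE 0.21, adjusted p = 0.00416), -1.08 for CD74 (SE 0.26, adjusted p = 0.0184) and -0.97 for HLA-DRA (SE 0.16, adjusted p = 0.00285). Without TOM-1 control replicate 3 these were -1.47, -1.01, -0.78 and -0.84. The CD74 difference was lost without treated TOM-1 replicate 3 or RS4;11 control replicate 1 (adjusted p up to 0.0582). For HLA-DQB1, the treated libraries were lower than the controls in TOM-1 and higher in RS4;11, in all 3 libraries of each.

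With TOM-1 control replicate 3 left out, 16 members differed, against 30.4% of all genes, 11 lower in TOM-1 (background 14.7%) and 5 higher (background 15.7%). HLA-B (0.45), HLA-C (0.53), HLA-E (0.41), HLA-F (1.07) and RFX5 (0.45) had the higher effect in TOM-1 there. The lower ones were the 4 above with HLA-DPB1 (-0.70), B2M (-0.29), TAP2 (-0.45), TAPBP (-0.35), PSMB9 (-0.37), ERAP1 (-0.65) and ERAP2 (-0.75). Of 35 other genes of the pathway 5 differed with all libraries, and 18 of 36 without that one, to be read against the same shares of all genes, 11.9% and 30.4%.

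The lines were next compared in control culture. TOM-1 had more RNA of most members, above all of the class II chains. With all libraries 22 members were higher in TOM-1 and none lower, against 34.7% of all genes called in either direction 16.2% called higher and 18.4% called lower (edgeR). Libraries of 24 members did not overlap and were higher in TOM-1, against 18.2% of all genes, and 0 were lower, against 24.4%. The median difference of the members was 1.23 on the log2 scale, and of all genes 0.01. All 7 class II chains were higher, with a median of 2.68, as were 4 of 5 class I chains. Without TOM-1 control replicate 3, 25 members were called, against 52.8% of all genes, 24 higher (background 25.4%) and 1 lower (background 27.5%), and without overlap 27 were higher (32.9%) and 2 lower (33.6%). HLA genes differ in sequence between people, so between the lines a difference in RNA cannot be told apart from a difference in how well alleles match the reference.

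HLA-DRB5 differed most, with 36 to 51 counts (1.72 to 2.19 CPM) in RS4;11 control against 40.8 to 88.4 CPM in TOM-1 control, 4.90 on the log2 scale (SE 0.30, edgeR adjusted p = 1.5e-07), or 4.45 without TOM-1 control replicate 3. HLA-DPB1 was higher by 3.81 (SE 0.30, or 3.30 without that library), HLA-DPA1 by 3.32 (SE 0.16, or 3.12 without it), HLA-DRB1 by 2.68 (SE 0.33, or 2.04 without it) and HLA-DRA by 2.34 (SE 0.12, or 2.21 without it). In each of these genes every TOM-1 library lay above every RS4;11 library. CD74 was higher by 1.79 (SE 0.19, or 1.48 without that library), HLA-DMA by 1.85 (SE 0.26, or 1.42), HLA-DOA by 1.75 (SE 0.17, or 1.53) and HLA-DMB by 1.57 (SE 0.34, or 1.33). The HLA-DMB difference rests on 54 to 84 counts in RS4;11 control. HLA-DQB1 was higher by 1.05 (SE 0.17, or 0.81) and HLA-DQA1 by 1.15 (SE 0.40, adjusted p = 0.0413). At 29 to 46 counts in RS4;11 control, the HLA-DQA1 call was lost in 7 of 12 fits, those without TOM-1 control replicate 2, any treated TOM-1 library, RS4;11 control replicate 1 or 2 or treated RS4;11 replicate 3 (adjusted p up to 0.185).

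Both activators were higher in TOM-1, and no RFX subunit was called. CIITA stood at 327, 332 and 246 CPM in TOM-1 control and 100.4, 101 and 89.1 CPM in RS4;11 control, 1.64 higher (SE 0.13, edgeR adjusted p = 1.33e-06). NLRC5 stood at 264, 282 and 212 CPM against 101, 103 and 108 CPM, 1.28 higher (SE 0.12, adjusted p = 5.9e-06). Neither pair of groups overlapped. RFX5 (0.09), RFXAP (0.17) and RFXANK (0.40) were not called, and RFX5 was higher in TOM-1 by 0.34 (SE 0.07, adjusted p = 0.000148) without TOM-1 control replicate 3.

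For class I, ERAP2 stood at 139.6, 146 and 121 CPM in TOM-1 control and 11.6, 12.5 and 14.0 CPM in RS4;11 control, 3.41 higher (SE 0.16, edgeR adjusted p = 2.54e-08), whereas its neighbour ERAP1 was not called (0.17), and was higher by 0.49 without TOM-1 control replicate 3. TAP1 stood at 251, 253 and 239 CPM against 53.7, 55.1 and 47.7 CPM, 2.25 higher (SE 0.12, adjusted p = 6.61e-08), and TAP2 was higher by 0.62 (SE 0.11). Neither ERAP2 nor TAP1 overlapped between the lines. HLA-B was higher by 1.75 (SE 0.26, or 1.25 without that library), B2M by 1.23 (or 0.98), HLA-E by 0.93 (or 0.69) and HLA-C by 0.88 (or 0.45). HLA-F was not called (-0.26, 95% interval -0.78 to 0.26), and was lower in TOM-1 by 0.67 (SE 0.13, adjusted p = 0.000161) without TOM-1 control replicate 3. PSMB9 was higher by 1.75 (or 1.15) and PSMB8 by 0.89 (or 0.37), and PSMB10 was not called. The PSMB8 call was lost without RS4;11 control replicate 1, 2 or 3 (adjusted p up to 0.0652).

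**Figure D5:**
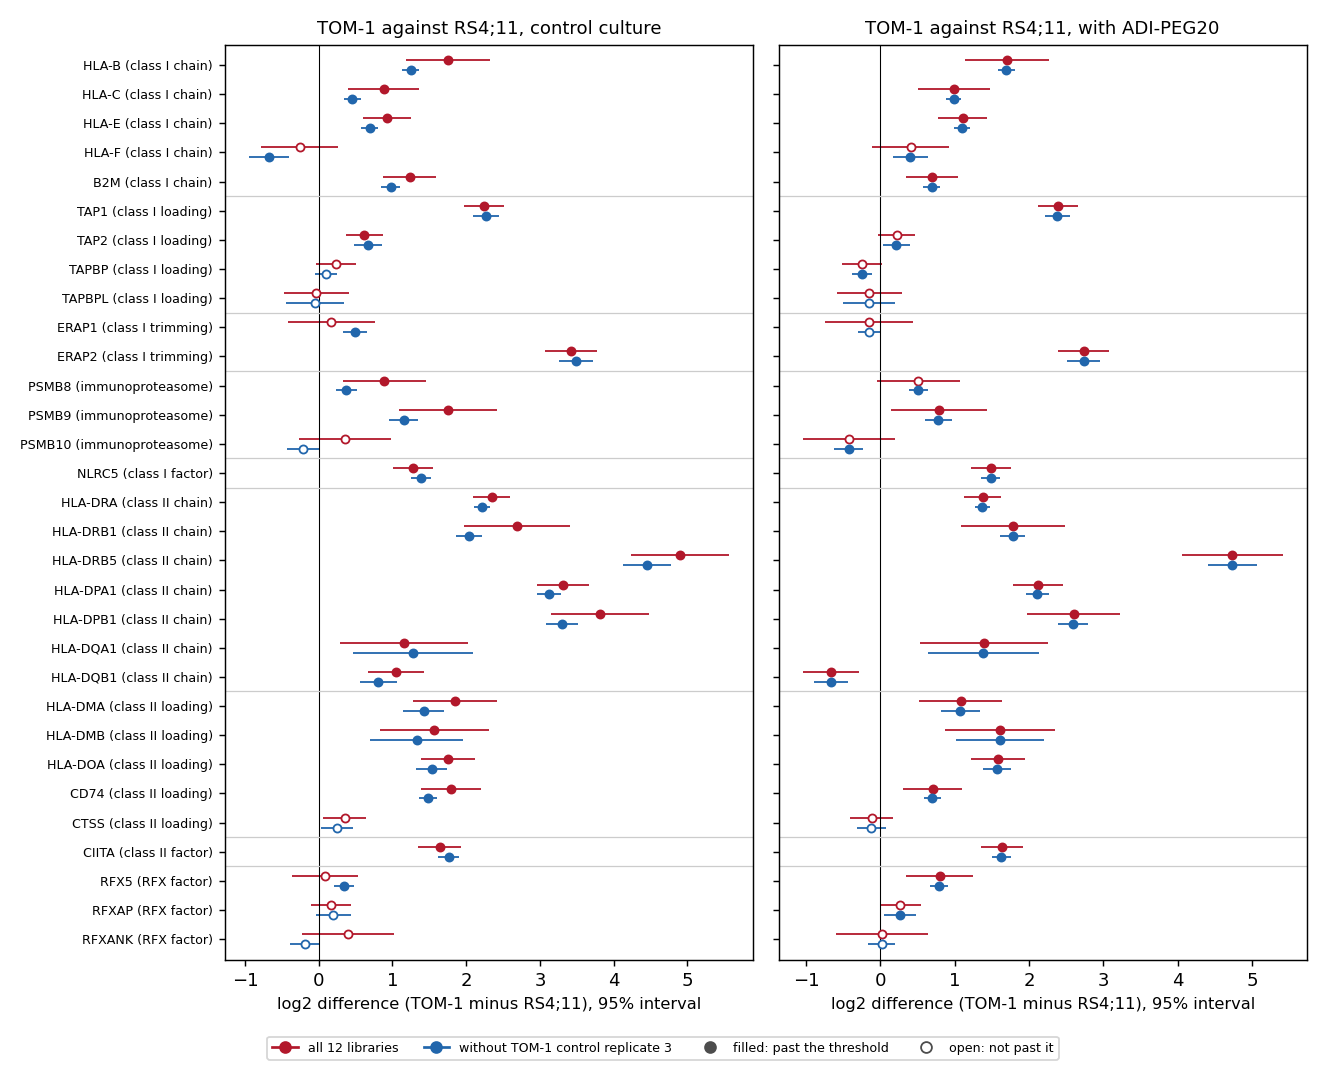
Points are log2 differences of TOM-1 minus RS4;11 for 31 members, in control culture (left) and with ADI-PEG20 (right), and bars are 95% intervals from the fit of 3 libraries per group (red) or without TOM-1 control replicate 3 (blue). Filled points passed the adjusted threshold. HLA-DRB5, HLA-DPB1 and ERAP2 lie farthest right in both panels, and HLA-DQB1 lies right of 0 in control culture and left of it with ADI-PEG20.

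Of the 39 other pathway genes, 10 were higher and 7 lower in TOM-1 control among the 35 tested, against 16.2% and 18.4% of all genes, and 17 higher and 11 lower of 36 without TOM-1 control replicate 3, against 25.4% and 27.5%. CTSH was lower in TOM-1 by 3.17 (SE 0.32, edgeR adjusted p = 9.41e-06). HLA-DQA2, a little expressed relative of HLA-DQA1, had 0 counts in all 6 RS4;11 libraries. It stood at 9.18, 9.67 and 26.4 CPM in TOM-1 control, with a mean 114.3-fold that of 3 counts per library. About 3 counts are the upper 95% limit for a count of 0 (counting error only), not the most possible. Leaving out control replicate 3 lowers the ratio to 71.44-fold. HLA-DQA2 was chosen after its values had been seen. Reads of an HLA-DQA1 allele unlike the reference could be placed on it.

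With ADI-PEG20 in both lines, 20 members were higher and 1 lower in TOM-1, against 47.2% of all genes called, 23.1% higher and 24% lower (edgeR). Without TOM-1 control replicate 3, which enters here only through the filter, the scaling and the shared spread, 24 were higher (background 31.4%) and 3 lower (background 31.5%), against 62.9% in all. Libraries did not overlap for 24 members higher in TOM-1 (35.7% of all genes) and 4 lower (34.9%), and for 24 (34.9%) and 4 (33.9%) in the other fit. The 1 lower member in the first fit was HLA-DQB1, at 14.5, 15.2 and 12.9 CPM in treated TOM-1 and 22.1, 23.1 and 22.0 CPM in treated RS4;11. Its difference was -0.66 (SE 0.17, adjusted p = 0.00775), with no overlap, where in control culture it had been 1.05 in the opposite direction. The differences of HLA-DRA (1.38), HLA-DPA1 (2.12) and CD74 (0.71) had the same direction as in control culture. HLA-DRB5 (4.73), ERAP2 (2.73) and HLA-DPB1 (2.60) were the largest. RFX5, not called in control culture, was higher in treated TOM-1 by 0.80 (SE 0.21, adjusted p = 0.00754). The PSMB9 call (0.79, adjusted p = 0.0459) was lost in 9 of 12 fits, those without any 1 treated TOM-1 or RS4;11 library (adjusted p up to 0.174), and with both other scalings.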

How the data were processed

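The authors deposited raw counts, whole reads per Ensembl gene in 1 table, for 12 libraries of 4 groups, and its columns were matched to samples through the column names in the sample descriptions. Per the labels, total RNA was extracted and captured by poly(A). Per the submitters' processing notes, STAR, SAMtools and featureCounts were used with hg38; versions, the annotation release and the use of strand are not given in the sources used here. Without known strand, reads of overlapping or antisense genes cannot be told apart. Symbols were looked up among Ensembl names (60463 identifiers matched), and lengths and overlaps from GENCODE release 29 (58396 matched). Total counts ran from 18958144 to 35956959, and intervals cover the spread between libraries or counting error only, since reads carry no molecular identifiers.

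Tests used edgeR 4.0.16 in R 4.3.3. The filterByExpr filter kept 17349 genes (18321 without TOM-1 control replicate 3), libraries were scaled by TMM, and 1 model with a mean per group gave quasi-likelihood F tests. Their p-values were adjusted by Benjamini and Hochberg's method over all tested genes, with a threshold of 0.05. The SE of a log2 fold change is its absolute value over the root of F. The script was tested on simulated data. The members and lists were chosen with earlier results of these data known. All 32 members were named, with PSMB5, PSMB6 and PSMB7, and other pathway genes that passed the threshold with and without TOM-1 control replicate 3 at a log2 fold change of at least 1 in size. HLA-DRB3 and HLA-DRB4, also on that list, were not analysed here, and 1 pathway gene and 1 marker are not reported here. Marker lists were for B-lineage cells, T cells, monocytes, macrophages or dendritic cells, erythroid cells, and fibroblasts or epithelium. Alternatives were a replicate block, only the groups compared, each library left out in turn, scaling by DESeq2 size factors or the upper quartile, a minimum mean of 10 counts in place of the filter or none at all, and DESeq2 1.42.0 with its Wald test. Every pair of replicates differed by more than sampling noise (lowest chi-square over its degrees of freedom, 4.93). Figures were drawn with matplotlib 3.10.9.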

Additional observations from a re-analysis of the deposited data

Results flagged for a closer look

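The effect of ADI-PEG20 differed between the lines for 7 named genes, by the test of the difference itself (edgeR, adjusted over all genes), with 3 libraries in each group. Of all genes tested 11.9% passed it, so the share of members that passed (4 of 31) is near that of all genes. Among the members, the log2 effect in TOM-1 minus that in RS4;11 was -0.97 for HLA-DRA, -1.20 for HLA-DPA1, -1.71 for HLA-DQB1 and -1.08 for CD74, all genes of class II. Among other genes of the pathway, it was -1.42 for PSME1 (adjusted p = 0.0222), -1.42 for PSME2 (adjusted p = 0.0299) and 1.39 for SPPL2A (adjusted p = 0.00758).

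Without TOM-1 control replicate 3 the differences of these other genes were -0.94, -0.90 and 1.16, and all 3 were called. With that library in, those of PSME1 and PSME2 were lost in 6 and 9 of 12 fits when libraries were left out in turn (adjusted p up to 0.0584 and 0.0733). PSME1 was lost without treated TOM-1 replicate 2 or 3, RS4;11 control replicate 1 or 2, or treated RS4;11 replicate 1 or 2. PSME2 was lost without any 1 treated TOM-1 or RS4;11 library. The difference of SPPL2A was called in all 12 fits, with adjusted p up to 0.0314.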

How the results depend on the processing

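When libraries were left out in turn, the members called ran from 7 to 20 for ADI-PEG20 in TOM-1, from 0 to 1 in RS4;11, and from 3 to 16 for the difference of the effects. The other pathway genes called ran from 8 to 22 in TOM-1, from 2 to 18 for the difference, and from 9 to 28 between the lines in control culture. Each highest count came without TOM-1 control replicate 3. A fit on only the groups compared, with fewer libraries, called 6 members and 7 other genes in TOM-1, and 7 other genes between the control cultures. The Wald test of DESeq2 called 7 members and 8 other genes for the difference, against 20% of all genes. Other counts of called genes were within 1.5 times.

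Some directions reversed, not all of them near 0. In TOM-1, with 1 library left out, those of HLA-B, PSMB8, HLA-DMB and RFXANK reversed only without TOM-1 control replicate 3. For ADI-PEG20 in TOM-1, TAP1 was -0.0305 with upper-quartile scaling and, for the difference, HLA-C was -0.003. With libraries left out in turn, the TOM-1 log2 fold change ran from -0.24 to 0.49 for HLA-B, -0.10 to 0.53 for HLA-C, -0.0041 to 0.0621 for TAP1, -0.62 to 0.13 for PSMB8, -0.21 to 0.17 for HLA-DMB, -0.0399 to 0.31 for HLA-DOA and -0.82 to 0.0206 for RFXANK. The difference ran from -0.29 to 0.45 for HLA-B and -0.0943 to 0.53 for HLA-C. Between the control cultures it ran from -0.0762 to 0.49 for ERAP1, -0.10 to 0.34 for RFX5 and -0.30 to 0.18 for PSMB5. The cause was not tested.

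The replicate numbers are not said to pair the cultures. Deviations of same-numbered libraries from their group means had correlations of -0.06 to -0.01 in TOM-1 and 0.03 to 0.14 in RS4;11. In TOM-1, 0 of 3 libraries correlated best with their own number, and in RS4;11 2 of 3. With the replicate number as a block, 11 members were called in TOM-1, against 30.7% of all genes, and HLA-B stood at 0.0417 there.

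Counts were low for HLA-DOB, HLA-DQA1 and, in RS4;11, HLA-DRB5 and HLA-DMB (33 to 84 counts), for which a change was not detectable or rests on few counts. Why these counts were low was not tested.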
